A study of Homo sapiens with 6 samples.

Results

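AP-1 is a transcription factor made of 2 proteins of the basic leucine zipper class, usually 1 of the FOS family (FOS, FOSB, FOSL1, FOSL2) with 1 of the JUN family (JUN, JUNB, JUND). FOS proteins cannot pair with themselves and need a JUN partner, while JUN proteins also pair with each other or with ATF3. Many of these genes, with the zinc finger gene EGR1 and with IER2, are immediate early genes, which cells transcribe within minutes of serum or stress without making new protein first. Signals of the MAP kinases reach them through SRF and its TCF partners at CArG boxes, and through CREB and ATF proteins at cyclic AMP response elements. Many of their RNAs are short-lived, in part through AU-rich elements in the untranslated region. These 10 genes (FOS, FOSB, FOSL1, FOSL2, JUN, JUNB, JUND, ATF3, EGR1 and IER2) were taken by symbol from the 58395 genes of the deposited tables. All 10 were found once and all 10 passed the filter on low counts, among 17261 genes tested.

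The 6 libraries came from 6 clonal lines of HEK293, an established line of human embryonic kidney origin. Lines 4, 11 and 12 overexpressed NOCT ∆(2-15)-3F, nocturnin without residues 2 to 15 and with the tag written 3F, and lines 2, 8 and 9 overexpressed GST-3F, glutathione S-transferase with that tag, as the control protein (n = 3 lines each). They are called NOCT lines and GST lines here. Each line is 1 clone, so within a line the effect of the construct and the history of the clone cannot be told apart, and the promoter of the constructs is not given in the sources used here. All lines grew for 3 days in medium with 10% serum, were detached with a protease, washed cold and frozen before RNA was isolated. Total RNA without ribosomal RNA was sequenced, strand-specifically.

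The libraries held 19729745 to 24422406 gene counts. The GST construct had 46 to 88 counts in GST lines and 0 or 1 in NOCT lines, and the NOCT construct had 46 to 82 counts in NOCT lines and 3 to 7 in GST lines, so each library held the construct of its label. Of 12 genes known from HEK293, 10 were at 1 TPM (a level corrected for gene length and depth) or more in all 6 lines. Their summed level was 673 to 899 TPM in GST lines and 813 to 1386 TPM in NOCT lines. Of 11 tested, 5 had higher and 1 lower values in NOCT lines at an unadjusted p under 0.05 in edgeR. These were 45.5% and 9.09%, beside 7.38% and 6.52% of all genes. None was called by edgeR, and DESeq2 called 4 (EYA1, INA, KRT8 and PAX2), or 36.4%, beside 3.41% of all genes. These markers thus differed between the groups more often than genes at large. All 7 leukocyte markers and 5 of 6 endothelial markers stayed under 1 TPM in all 6, as did 6 of 8 fibroblast markers, and COL1A2, CD3E and CLDN5 were at 0. The summed level of the fibroblast markers was 4.09 to 4.79 TPM in GST lines and 2.96 to 9.47 TPM in NOCT lines, and the part of either marker list in the results was not tested. In bulk RNA, fewer cells with a transcript and less of it per cell cannot be told apart.

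Between the groups, 9 of the 10 genes had a log2 fold change above 0 in the NOCT lines and JUND had one below 0. The estimates ran from 1.15 for FOSL1 and 1.02 for EGR1 to 0.08 for IER2, with -0.59 for JUND. None of the 10 passed an adjusted p of 0.05 in edgeR's quasi-likelihood test over all genes (adjusted p 0.182 to 0.873), where 0.0579% of all genes did. An unadjusted p under 0.05 was found for 6 of them. These were EGR1, FOSL1, JUN, FOSB and FOS with higher values in the NOCT lines, where 7.38% of all genes had such a p, and JUND with lower values, where 6.52% had. The median log2 fold change of the 10 was 0.63, beside 0.0046 over all genes tested. The 10 were chosen with earlier results of these data known, so these comparisons with all genes are descriptions only. DESeq2 on the same counts called 1 of the 10, EGR1, where it called 3.41% of genes.

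All 3 NOCT lines lay above all 3 GST lines for 2 of the 10 genes, FOSL1 and EGR1, where 10.5% of all genes had that order. They lay below for JUND, where 9.54% of all genes did. An exact permutation of the group labels over lines, two-sided, gave p = 0.1 for each of these 3, which is as low as 3 lines against 3 can reach. Any gene whose groups lie apart gets that p, so it adds nothing to the order itself. For the other 7 genes the groups overlapped. Values below are CPM (counts relative to library size, with TMM factors, not corrected for gene length) unless TPM is named.

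**Figure D1:**
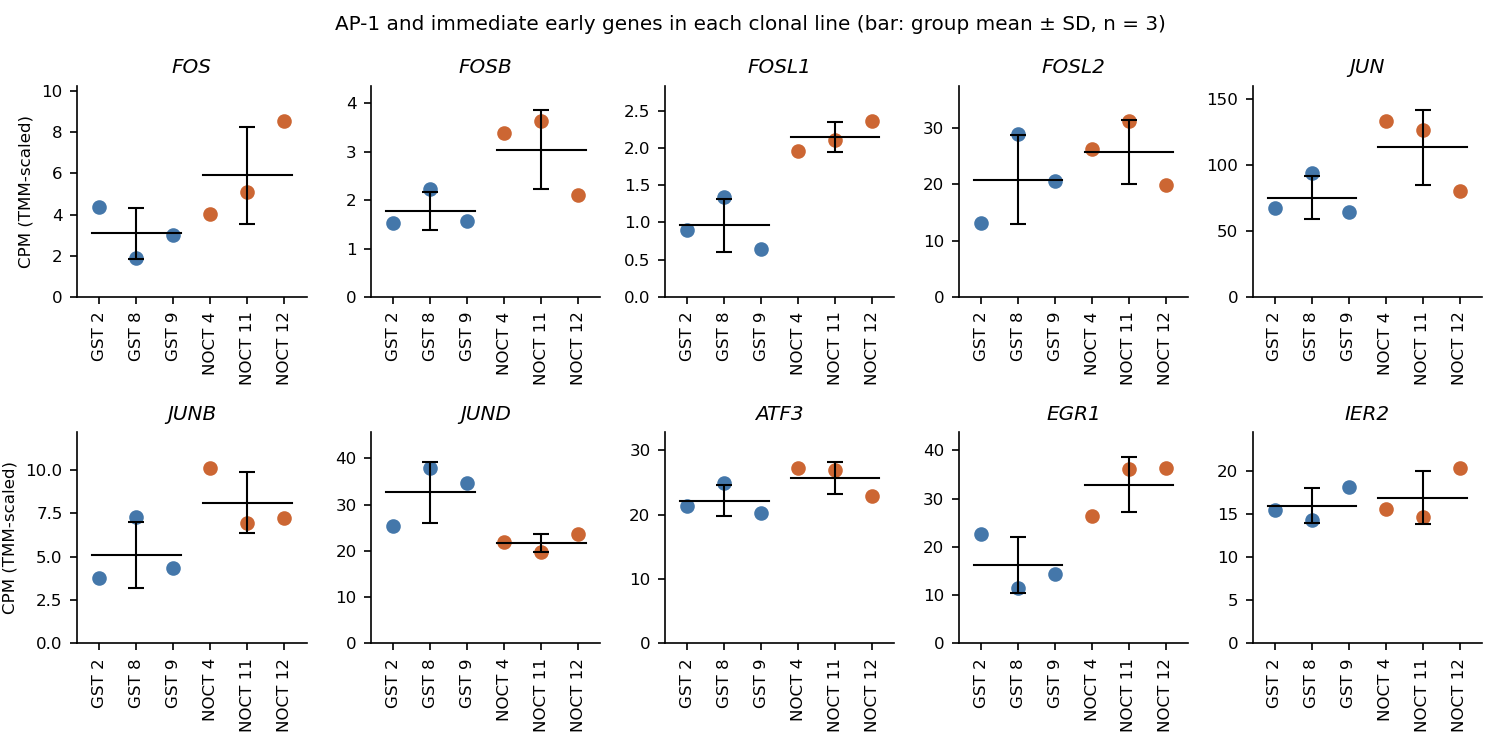
CPM of each of the 10 genes (vertical axes, each from 0) in GST lines 2, 8 and 9 (blue) and NOCT lines 4, 11 and 12 (orange), with the group mean and SD (n = 3) in black. FOSL1 and EGR1 have every NOCT line above every GST line, JUND has the opposite, and FOS is led by NOCT line 12 at 8.54 CPM.

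The FOS proteins pair with JUN proteins and differ in how strongly they activate transcription. FOS itself (ENSG00000170345; chromosome 14, 75278774 to 75282230, plus strand, 4 exons in transcript ENST00000303562.8) encodes the founding member, made in a brief burst after a stimulus. It had 4.38, 1.90 and 3.00 CPM in GST lines 2, 8 and 9 and 4.05, 5.11 and 8.54 CPM in NOCT lines 4, 11 and 12. GST line 2 was above NOCT line 4, so the groups overlapped, and NOCT line 12 stood highest. The log2 fold change was 0.93 ± 0.38 (SE; 95% interval 0.06 to 1.80), from 3.10 ± 1.24 to 5.90 ± 2.34 CPM (SD, n = 3 each), and the edgeR adjusted p was 0.332. Genes around FOS on chromosome 14 were also higher in the NOCT lines. The median of up to 50 neighbours on each side, relative to the GST mean, was 0.22, -0.19 and -0.03 in GST lines 2, 8 and 9 and 0.34, 0.31 and 0.32 in NOCT lines 4, 11 and 12 on the log2 scale. With that local level as an offset, the log2 fold change of FOS was 0.65 (edgeR adjusted p 0.410, unadjusted 0.0825). Without NOCT line 12 it was 0.57, with no offset. On the TPM scale the groups did not overlap, with 3.63 in GST line 2 and 3.87 in NOCT line 4.

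FOSL1 (ENSG00000175592; chromosome 11, 65892049 to 65900573, minus strand) encodes FRA1, a FOS protein without the strong activation domain of FOS, known from migrating and invasive cells. It was the second lowest of the 10 by TPM, and its values rest on 17, 29 and 13 counts in GST lines 2, 8 and 9 and 50, 47 and 47 counts in NOCT lines 4, 11 and 12. Those were 0.898, 1.35 and 0.639 CPM, and 1.97, 2.11 and 2.36 CPM. The NOCT lines were close to each other and all above the GST lines. The estimated difference was 1.15 ± 0.32 on the log2 scale (SE; 95% interval 0.40 to 1.89; edgeR adjusted p 0.207). A log2 fold change as high was found for 1.65% of tested genes of any level, and genes of similarly low counts were not compared separately. The neighbouring genes differed by -0.0020 between the groups, and the neighbour offset left the estimate at 1.15.

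FOSB (ENSG00000125740; chromosome 19, 45467995 to 45475179, plus strand), whose protein and its stable short form accumulate on repeated stimulation, was the lowest of the 10 by TPM. It had 1.53, 2.23 and 1.57 CPM in GST lines 2, 8 and 9 and 3.38, 3.63 and 2.11 CPM in NOCT lines 4, 11 and 12, from 29 to 86 counts. NOCT line 12 fell below GST line 8, while NOCT lines 4 and 11 were above all GST lines. The log2 fold change was 0.77 ± 0.30 (SE; 95% interval 0.08 to 1.47; edgeR adjusted p 0.311). Its neighbours on chromosome 19 were likewise higher in NOCT lines 4 and 11 and not in line 12, at 0.50, 0.33 and -0.14, and the offset for them left 0.51 (edgeR adjusted p 0.397). FOSB lies wholly within the span of ERCC1 on the opposite strand, and the strand setting of the authors' counting is not given in the sources used here, so its counts are uncertain to that extent. FOSL2 and IER2 each share bases with an antisense transcript as well (FLJ31356 and AC011446.2), and FOSL2 with AC104695.3 on its own strand.

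FOSL2 (ENSG00000075426; chromosome 2, 28392448 to 28417312, plus strand) encodes FRA2, the other FOS protein without a strong activation domain, and was the most abundant of the family. It had 13.1, 28.9 and 20.6 CPM in GST lines 2, 8 and 9 and 26.3, 31.3 and 19.9 CPM in NOCT lines 4, 11 and 12. The groups overlapped, and the GST lines alone spanned more than the distance between the group means. The log2 fold change of 0.31 ± 0.28 (SE) had a 95% interval of -0.34 to 0.96, which includes 0 and values near 2-fold (edgeR adjusted p 0.664). It was 0.06 without GST line 2, 0.14 without NOCT line 11 and 0.61 without GST line 8. Here the neighbours went the other way, with -0.50 in NOCT line 4 and between -0.07 and 0.05 in the other 5 lines, and the offset raised the estimate to 0.52 (edgeR adjusted p 0.465).

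The JUN proteins are the obligate partners within AP-1. JUN (ENSG00000177606; chromosome 1, 58780788 to 58784327, minus strand, 1 exon) encodes the strongest activator among them and activates its own gene. It had 67.1, 93.9 and 64.6 CPM in GST lines 2, 8 and 9 and 133, 126 and 80.5 CPM in NOCT lines 4, 11 and 12. NOCT lines 4 and 11 were above every GST line, whereas NOCT line 12 was below GST line 8. The difference was 0.59 ± 0.21 on the log2 scale (SE; 95% interval 0.10 to 1.09), from 75.2 ± 16.3 to 113 ± 28.7 CPM (SD, n = 3 each), with an edgeR adjusted p of 0.279. Without NOCT line 12 the value was 0.79 and passed (edgeR adjusted p 0.0284), the only one of the 10 to do so, in a fit that called 5.42% of all genes. The neighbours differed by 0.05 between the groups, and the offset left 0.54.

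JUNB (ENSG00000171223; chromosome 19, 12791496 to 12793315, plus strand, 1 exon) encodes a weaker activator that can hold JUN in check. It had 3.75, 7.29 and 4.33 CPM in GST lines 2, 8 and 9 and 10.1, 6.95 and 7.23 CPM in NOCT lines 4, 11 and 12. GST line 8 was above NOCT lines 11 and 12 by a small margin, and GST lines 2 and 9 were below every NOCT line. On the log2 scale the difference was 0.66 ± 0.29 (SE; 95% interval -0.0090 to 1.33; edgeR adjusted p 0.366). JUNB lies within the span of HOOK2 on the opposite strand, with the same uncertainty as for FOSB. Without GST line 8 the difference was 0.9953.

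JUND (ENSG00000130522; chromosome 19, 18279760 to 18281622, minus strand, 1 exon) encodes the JUN protein present in resting cells, which is little induced by growth factors and restrains proliferation. It had 25.3, 38.0 and 34.8 CPM in GST lines 2, 8 and 9 and 22.02, 19.7 and 23.6 CPM in NOCT lines 4, 11 and 12. Every NOCT line was below every GST line, the nearest pair being GST line 2 and NOCT line 12. JUND was the only 1 of the 10 with a log2 fold change below 0, at -0.59 ± 0.17 (SE; 95% interval -0.97 to -0.20; edgeR adjusted p 0.210), from 32.7 ± 6.60 to 21.8 ± 1.96 CPM (SD, n = 3 each). On the TPM scale NOCT line 4, at 36.6, lay just above GST line 2, at 36.4, so the separation of the groups is not kept there. Its neighbours differed by -0.06, and the offset left -0.52. DESeq2 gave -0.60 with an adjusted p of 0.0524.

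ATF3 (ENSG00000162772; chromosome 1, 212565334 to 212620777, plus strand) encodes a stress-induced partner of JUN that represses when paired with itself. It had 21.4, 24.9 and 20.2 CPM in GST lines 2, 8 and 9 and 27.3, 27.0 and 22.9 CPM in NOCT lines 4, 11 and 12, so NOCT line 12 alone fell inside the span of the GST values. The log2 fold change of 0.22 ± 0.14 (SE) had a 95% interval of -0.09 to 0.53 (edgeR adjusted p 0.515).

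EGR1 (ENSG00000120738; chromosome 5, 138465490 to 138469315, plus strand) is not an AP-1 gene. Its zinc finger protein binds GC-rich sites, and its gene is the usual reporter of ERK signalling to SRF and the TCFs. It had 22.7, 11.5 and 14.5 CPM in GST lines 2, 8 and 9 and 26.3, 36.0 and 36.4 CPM in NOCT lines 4, 11 and 12, from 248 to 803 counts. All NOCT lines were above all GST lines, with the smallest gap between NOCT line 4 and GST line 2. The group means were 16.2 ± 5.80 and 32.9 ± 5.73 CPM (SD, n = 3 each), a 2.03-fold difference and a log2 fold change of 1.02 ± 0.25 (SE; 95% interval 0.44 to 1.60; edgeR adjusted p 0.182). A log2 fold change as high was found for 2.10% of tested genes. Its neighbours differed by 0.0028, and the offset left 1.02. DESeq2 called it, with a log2 fold change of 1.02 and an adjusted p of 0.00565. In the authors' deposited table EGR1 has a shrunken log2 fold change of 0.80 and an adjusted p of 0.00336. It is the only one of the 10 under 0.05 in the authors' deposited table, where 2.87% of rows with an adjusted p were. JUND follows in the authors' deposited table at -0.51 with an adjusted p of 0.0641.

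IER2 (ENSG00000160888; chromosome 19, 13150415 to 13154908, plus strand) encodes a small nuclear protein induced with FOS. It had 15.5, 14.3 and 18.2 CPM in GST lines 2, 8 and 9 and 15.6, 14.6 and 20.4 CPM in NOCT lines 4, 11 and 12. The groups were interleaved, and the log2 fold change of 0.08 ± 0.17 (SE) had a 95% interval of -0.32 to 0.47 (edgeR adjusted p 0.873). Its sign turned without NOCT line 12 (-0.084) or without GST line 8 (-0.01).

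**Figure D2:**
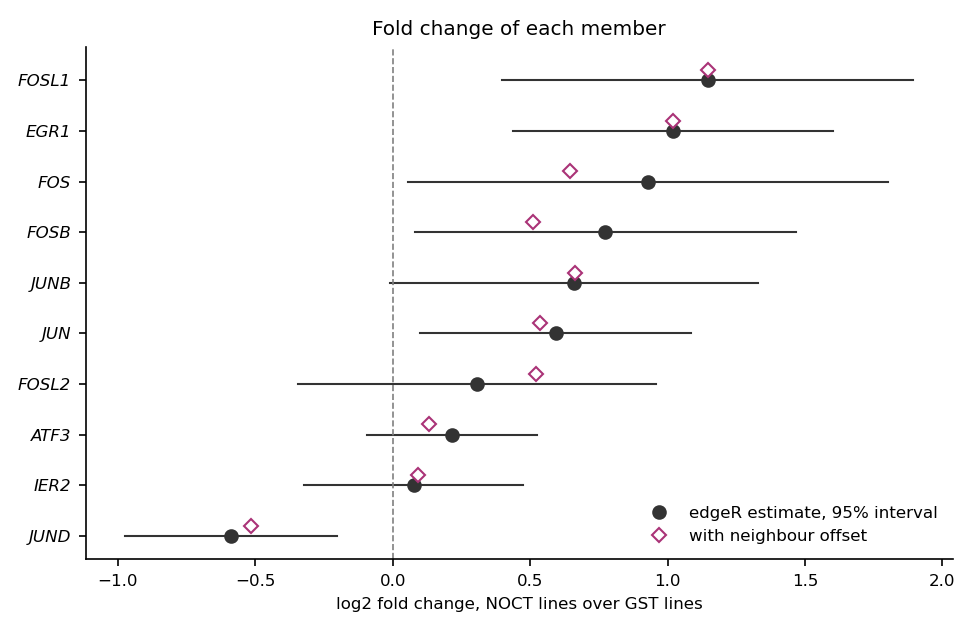
Log2 fold change of NOCT over GST lines (horizontal axis) for the 10 genes (rows), with the edgeR estimate and 95% interval in black and the estimate with the neighbour offset as open diamonds. The offset moves FOS from 0.93 to 0.65 and FOSB from 0.77 to 0.51, moves FOSL2 from 0.31 to 0.52, and leaves FOSL1 and EGR1 in place.

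For EGR1 and JUND, whose groups lay apart in CPM, the 250 bases before their start sites are shown, from RefSeq on GRCh38.p14. Whether any site in these windows bears on the difference of either gene was not tested. Capitals mark CArG boxes (the SRF site) and the letters TGACGT (the core of a cyclic AMP response element, on either strand). They also mark TGANNTCA, with any base at N, a looser letter match that includes the full element TGACGTCA.
EGR1, chr5:138465229-138465478, plus strand: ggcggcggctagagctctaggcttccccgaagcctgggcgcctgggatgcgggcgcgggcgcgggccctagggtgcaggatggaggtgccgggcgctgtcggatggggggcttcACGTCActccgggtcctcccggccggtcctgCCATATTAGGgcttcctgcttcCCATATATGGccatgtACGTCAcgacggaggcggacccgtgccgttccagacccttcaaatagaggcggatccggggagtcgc
JUND, chr19:18281623-18281872, minus strand: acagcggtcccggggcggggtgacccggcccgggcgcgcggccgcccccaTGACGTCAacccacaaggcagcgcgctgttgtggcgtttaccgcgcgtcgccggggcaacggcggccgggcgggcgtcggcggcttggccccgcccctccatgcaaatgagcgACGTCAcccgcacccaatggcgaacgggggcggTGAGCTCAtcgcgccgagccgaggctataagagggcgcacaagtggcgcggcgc
The EGR1 window holds 2 CArG boxes, 105 to 96 and 83 to 74 bases before the start, and 2 TGACGT cores. The JUND window holds no CArG box but a full TGACGTCA 200 to 193 bases before the start, a TGAGCTCA at 54 to 47, and another TGACGT core at 87 to 82. For FOS and JUN, 30 bases are given around the matching site, TGACGT 64 to 59 bases before the start in FOS and TGACATCA 67 to 60 bases before it in JUN.
FOS, chr14:75278752-75278781, plus strand: tggttgagcccgTGACGTttacactcattc
JUN, chr1:58784096-58784125, minus strand: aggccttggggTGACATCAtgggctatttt

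RefSeq windows were matched by symbol for 9 of the 10 genes, with 2 start sites for ATF3. FOSL1 had no window and was not searched for these motifs. TGACGT was present in 5 of the 9 (FOS, FOSB, FOSL2, JUND and EGR1) and in 7.10% of all 35116 windows of the same 250 bases, searched on both strands. In FOS, FOSB and FOSL2 it lay at nearly the same place, 64 to 59, 60 to 55 and 66 to 61 bases before the RefSeq start. The windows of FOS, FOSL2, JUN and ATF3 reach into or lie within the gene spans given above, so such distances depend on the annotation. The looser match TGANNTCA, which includes TGACGTCA, was present in JUN, JUND and ATF3 and in 10.1% of windows. TGANTCA was present in none of the 9 and in 6.57% of windows. Within these windows, CArG boxes were found in EGR1 alone among the 9 and in 1.16% of windows. Sites farther than 250 bases before the start were not searched, so a box there would be missed. TATAAA was present in 4 of the 9 and in 10.7% of windows, 33 to 28, 30 to 25 and 31 to 26 bases before the start in FOS, FOSB and JUNB and at 230 to 225 for 1 ATF3 start.

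The AU-rich elements of these RNAs were counted as ATTTA in the 3′ untranslated region of 1 GENCODE transcript per gene. At least 1 ATTTA was found in 9 of the 10 genes, IER2 being the exception, beside 70.9% of 13254 tested coding genes. FOS had 5 in 806 bases, or 6.20 per kb, and JUNB had 2 in 500 bases, or 4.00 per kb, where the median over the tested coding genes was 1.65 per kb. Only 5 of the 10 genes were above that median. EGR1 had 1 in 1234 bases, or 0.810 per kb. The longer element TTATTTATT was present in FOS and FOSL2, and in 8.79% of tested coding genes. The densest 30-base stretches of those 2 are given with ATTTA in capitals.
FOS, chr14:75282058-75282087, plus strand: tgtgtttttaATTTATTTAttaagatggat
FOSL2, chr2:28416349-28416378, plus strand: attgacATTTAttttattATTTAttttaaa
The 1165 tested genes with TTATTTATT had a median log2 fold change of -0.0064, and those without it 0.0093. RNA decay was not measured, and whether these elements bear on the fold changes was not tested.

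The lines did not order the 10 genes alike. Relative to the GST mean, the median difference over the 10 was 0.61, 0.71 and 0.31 on the log2 scale in NOCT lines 4, 11 and 12, and -0.09, 0.29 and -0.12 in GST lines 2, 8 and 9. The same medians over all tested genes were between -0.0022 and 0.01. NOCT line 12 was the highest of the 6 for FOS, FOSL1, EGR1 and IER2. It fell between the lowest and highest GST line for FOSB, FOSL2, JUN, JUNB and ATF3, which were highest in NOCT lines 4 or 11. GST line 8 was likewise split, being the lowest of the 6 for FOS, EGR1 and IER2 and the highest GST line for FOSB, FOSL1, FOSL2, JUN, JUNB, JUND and ATF3. FOS, EGR1 and IER2 thus shared their highest and their lowest line.

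**Figure D3:**
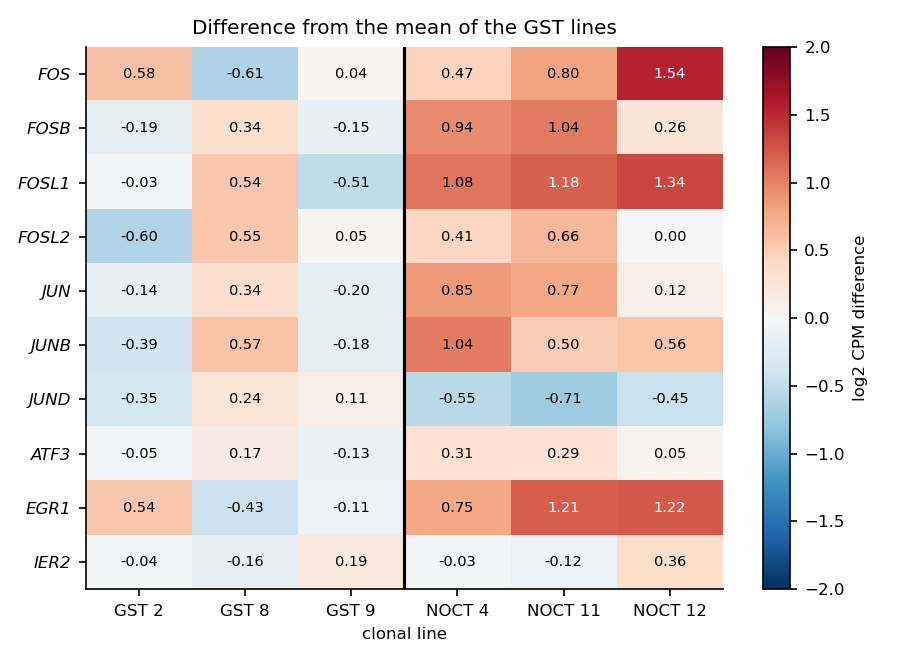
Difference in log2 CPM from the mean of the GST lines, for each gene (rows) in each line (columns), from blue (lower) to red (higher), with the value in each cell. NOCT line 12 is at 1.54 for FOS and 1.22 for EGR1 but at 0.12 for JUN, and GST line 8 is at -0.61 for FOS and 0.34 for JUN.

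Levels between genes were compared on the TPM scale. JUN was the most abundant (50.6 to 116 TPM over the 6 lines, median 70.8), followed by JUND (31.3 to 59.3, median 36.5), EGR1 (10.7 to 34.0, median 22.7), ATF3 (13.9 to 20.9, median 17.0) and IER2 (13.5 to 18.8, median 14.9). Below these came JUNB (5.53 to 17.2, median 11.3), FOSL2 (4.91 to 13.0, median 9.68), FOS (1.71 to 7.46, median 3.75), FOSL1 (0.941 to 3.54, median 2.65) and FOSB (0.740 to 1.94, median 1.12). The range of each gene overlapped with that of the next in this order. Compared within lines, FOSL2 was above FOS and FOSL1 above FOSB in all 6 lines, while in the other 7 of the 9 neighbouring pairs the order differed between lines. JUN was above 94.1% of tested genes by mean TPM and FOSB above 11.8%. FOS had the widest range among the 10, with its highest line at 4.36 times the lowest, and IER2 the narrowest, at 1.39 times. The tagwise biological coefficient of variation in edgeR was 33.4% for FOS and had a median of 23.6% over the 10, beside 18.2% over all tested genes, and it was above that median for 7 of the 10.

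The JUN family summed to 92.9, 148 and 109 TPM in GST lines 2, 8 and 9 and to 170, 149 and 111 TPM in NOCT lines 4, 11 and 12, so the totals overlapped. Within the family, shares do not depend on the scaling of the libraries. JUN made up 54.8%, 52.1% and 46.4% of it in GST lines 2, 8 and 9 and 68.4%, 71.3% and 57.8% in NOCT lines 4, 11 and 12, and JUND made up 39.2%, 40.0% and 47.5%, and 21.5%, 21.1% and 32.2%. The groups did not overlap in either share. Over all tested genes, 10.5% had every NOCT line above every GST line in CPM and 9.54% had every NOCT line below. No such count was made for shares or on the TPM scale. The ratio of JUN to JUND was 1.40, 1.30 and 0.977 in GST lines 2, 8 and 9 and 3.19, 3.38 and 1.80 in NOCT lines 4, 11 and 12. The JUN share, the JUND share and this ratio rest largely on the same values, so they are not separate observations. The share of JUNB averaged 6.62% ± 1.08 over GST lines, against 9.28% ± 1.43 over NOCT lines (SD, 3 lines each), with NOCT line 11 below GST line 8.

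The FOS family summed to 10.6, 16.7 and 12.3 TPM in GST lines 2, 8 and 9 and to 20.4, 22.9 and 19.9 TPM in NOCT lines 4, 11 and 12, without overlap. FOSL2 was the largest part in all 6 lines, from 39.4% in NOCT line 12, where FOS made up 37.4%, to 70.4% in GST line 8, where FOS made up 10.2%. FOSL1 made up 12.1%, 12.4% and 7.66% in GST lines 2, 8 and 9 and 15.8%, 14.5% and 17.8% in NOCT lines 4, 11 and 12, also without overlap. Among single genes, 10.5% of all tested had every NOCT line above every GST line in CPM. That count was not made on the TPM scale, nor for sums or shares. RNA of the JUN family exceeded that of the FOS family in all lines, by 8.79, 8.86 and 8.89 times in GST lines 2, 8 and 9 and by 8.36, 6.49 and 5.59 times in NOCT lines 4, 11 and 12.

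**Figure D4:**
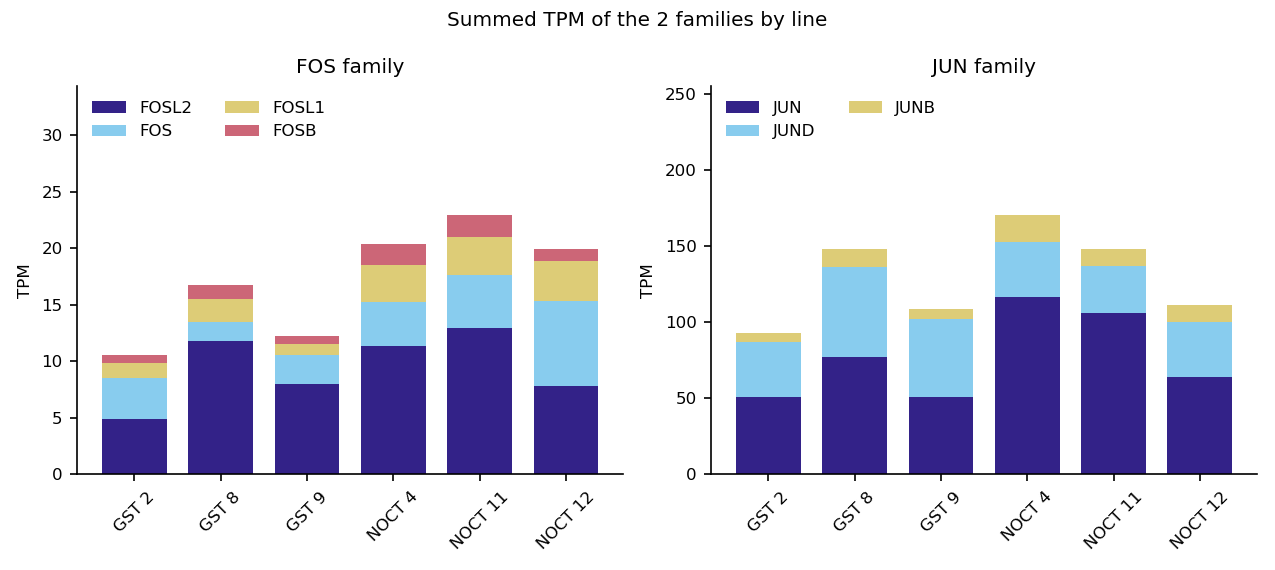
Stacked TPM of the FOS family (left) and JUN family (right) in each line. The FOS family reaches 19.9 to 22.9 TPM in NOCT lines and 10.6 to 16.7 TPM in GST lines, and the JUN family overlaps between the groups, at 92.9 to 148 TPM in GST lines and 111 to 170 TPM in NOCT lines.

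Other genes of the same pathway were described from 5 lists, naming at most 4 tested genes with the smallest p in each. The lists were chosen with earlier results of these data known, so shares above those of all genes may partly reflect that choice. Genes that passed the filter only through the group where they are high had to differ. For both reasons the counts are descriptions only. Of 38 other immediate early genes, 37 were tested and 0 passed in edgeR over all genes, in either direction, and DESeq2 called 5. An unadjusted p under 0.05 was found for 12 with higher values in the NOCT lines (32.4%, beside 7.38% of all genes) and 2 with lower values (5.41%, beside 6.52%). The DESeq2 calls were 14.3% of those with an adjusted p, beside 3.41% of all genes, and the median log2 fold change was 0.24, beside 0.0046 over all genes. IER3, a regulator of apoptosis, had 10.1, 8.22 and 8.46 CPM in GST lines 2, 8 and 9 and 33.5, 34.3 and 16.0 CPM in NOCT lines 4, 11 and 12, or 1.64 higher on the log2 scale (edgeR adjusted p 0.0942). GADD45B, a stress-induced activator of MAP kinase kinase kinase MEKK4, had 15.6, 11.2 and 18.9, and 41.8, 36.2 and 27.9 CPM, a difference of 1.21 on the log2 scale (adjusted p in edgeR 0.104). PPP1R15A, the GADD34 phosphatase subunit, differed by 0.86 on the log2 scale (adjusted p in edgeR 0.205) and 0.57 with the neighbour offset. MYC went the other way, with 53.6, 42.5 and 52.7 CPM in the GST lines and 14.1, 12.2 and 32.1 CPM in the NOCT lines, a difference of -1.35 on the log2 scale (adjusted p in edgeR 0.184). In all 4, the NOCT line nearest the GST lines was line 12.

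Among the other basic leucine zipper genes that can pair with AP-1 proteins or share their sites, 27 of 30 were tested and 0 passed in edgeR, with 3 higher and 0 lower at an unadjusted p under 0.05 and 1 call in DESeq2. The 3 were 11.1% of those tested, beside 7.38% of all genes, and the DESeq2 call 3.70%, beside 3.41%, both near the background. MAFK, a small MAF protein, had 14.05, 16.8 and 20.5 CPM in GST lines 2, 8 and 9 and 62.7, 42.4 and 21.1 CPM in NOCT lines 4, 11 and 12, a difference of 1.30 on the log2 scale (adjusted p in edgeR 0.196). ATF6B, BACH1 and ATF6 had log2 fold changes of 0.25, 0.24 and 0.17 (edgeR adjusted p 0.314, 0.318 and 0.440).

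Upstream, 38 of 38 genes of the RAS to MAP kinase pathway, SRF and its partners were tested and 0 passed in edgeR, with 5 higher and 2 lower at an unadjusted p under 0.05, 3 calls in DESeq2 and a median log2 fold change of -0.05. These were 13.2% higher and 5.26% lower, beside 7.38% and 6.52% of all genes, and 7.89% called by DESeq2, beside 3.41%. MKL1, the actin-sensing partner of SRF, lies on chromosome 22 and differed by 0.54 (adjusted p in edgeR 0.165), and by 0.28 with the neighbour offset. MAPK13, a p38 kinase, was at 1.30 (edgeR adjusted p 0.166) and SOS2, a RAS exchange factor on chromosome 14 like FOS, at 0.48 (edgeR adjusted p 0.1997), which the offset took to 0.18. The feedback inhibitors of the pathway, its phosphatases and Sprouty genes, had 17 of 18 tested and 0 called in edgeR, with 2 higher and 0 lower at an unadjusted p under 0.05 and 1 call in DESeq2. That was 11.8% higher, beside 7.38% of all genes, and 5.88% called by DESeq2, beside 3.41%. DUSP6, the ERK phosphatase, had 10.2, 8.36 and 9.64 CPM in GST lines 2, 8 and 9 and 12.7, 13.5 and 16.1 CPM in NOCT lines 4, 11 and 12, without overlap, and differed by 0.58 on the log2 scale (edgeR adjusted p 0.204). SPRY4 was at 1.83 (edgeR adjusted p 0.228), with GST line 2 above NOCT line 12, SPRED1 at 0.32 and SPRY1 at -0.43 (edgeR adjusted p 0.413 and 0.454).

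Downstream, 25 of 36 genes known as AP-1 targets were tested and 0 passed in edgeR, with 10 higher and 0 lower at an unadjusted p under 0.05 and 4 calls in DESeq2. The 10 were 40.0% of those tested, beside 7.38% of all genes, and the DESeq2 calls 18.2% of those with an adjusted p, beside 3.41%. The median log2 fold change was 0.47. The 11 that were too low to test, among them MMP1, MMP3, MMP9 and CXCL8, reached at most 2.49 TPM in a line. TGFB1, a secreted growth factor, had 13.7, 7.53 and 9.49 CPM in GST lines 2, 8 and 9 and 63.2, 48.5 and 17.9 CPM in NOCT lines 4, 11 and 12, a difference of 2.08 on the log2 scale (adjusted p in edgeR 0.133). MMP2, a gelatinase, had 1.32, 2.14 and 0.836 CPM, and 9.55, 9.69 and 1.41 CPM, a difference of 2.26 on the log2 scale (adjusted p in edgeR 0.222). CLU, a secreted chaperone, was at 1.33 (edgeR adjusted p 0.216). In MMP2 and CLU, NOCT line 12 lay between the lowest and highest GST line, as it did for JUN and FOSB.

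**Figure D5:**
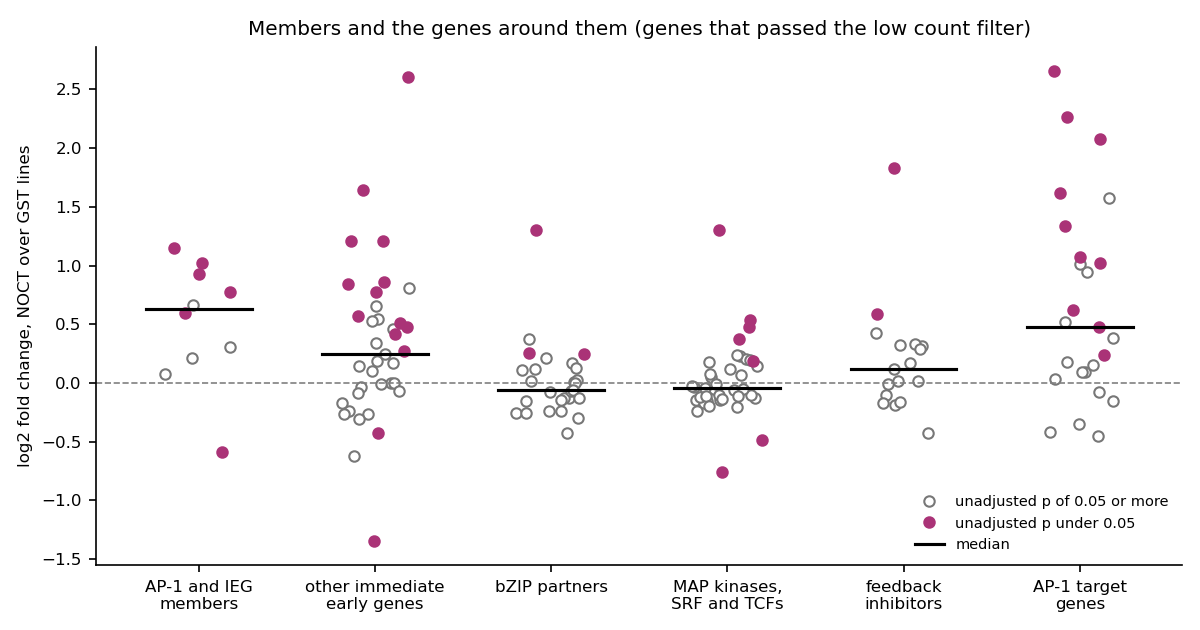
Log2 fold change of NOCT over GST lines (vertical axis) for the 10 genes and for the tested genes of the 5 lists, with filled points at an unadjusted p under 0.05 and a bar at the median. The medians are 0.63 for the 10 genes, 0.24 for other immediate early genes, 0.47 for AP-1 targets, and between -0.06 and 0.12 for the other 3 lists.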

How the data were processed

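RNA-seq of 6 clonal HEK293 lines was read from 3 kinds of deposited table. The authors' count tables hold raw reads per gene of GENCODE identifiers, and per the submitters' processing notes cutadapt 1.8.1, Trimmomatic 0.33, STAR 2.5.2b, HTSeq 0.6.1p1 and DESeq2 1.16.1 were used with GRCh38; the strand setting is not given in the sources used here. The authors' TPM table is scaled by gene length and depth. The authors' deposited DESeq2 table holds a mean normalized signal, shrunken log2 fold changes, a score (the test statistic) and p-values. Its header does not state the direction, which was read from its rows for the constructs (NOCT above 0, GST below 0).

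Counts were tested with edgeR 4.0.16 (R 4.3.3; filterByExpr, TMM, quasi-likelihood test, Benjamini-Hochberg over 17261 genes, threshold 0.05). DESeq2 1.42.0, limma 3.58.1, other scalings and filters, an offset for the median deviation of up to 50 neighbouring genes a side (mean 1 CPM or more), and leaving out each line were alternatives, 17 in all. The fit was first tested on simulated data, in which genes varied independently. That test does not cover shifts shared by neighbouring genes or by a whole line. CPM used TMM-scaled library sizes, and log2 deviations a prior count of 0.5. Promoters came from RefSeq (GRCh38.p14) and transcripts from GENCODE on GRCh38. The named genes are the 10 members, at most 4 genes per pathway list with the smallest p (some are not reported here), and for FOS, JUN and EGR1 the 3 genes with the highest Pearson r. Members and lists were chosen with earlier results of these data known.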

Additional observations from a re-analysis of the deposited data

How the results depend on the processing

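Over the 17 alternatives, FOS, FOSB, FOSL1, FOSL2, JUNB and ATF3 kept their direction and an adjusted p above the threshold. With a line left out, FOS (0.57 to 1.26), FOSL2 (0.06 to 0.61) and JUNB (0.46 to 0.9953) moved by over 1.5 times from the main estimate. Other genes also moved when a line was left out: FOSL1 0.92 to 1.47, EGR1 0.82 to 1.34, JUN 0.46 to 0.79 and JUND -0.74 to -0.48. The edgeR adjusted p of EGR1 was 0.589 without GST line 9. FOSB ran down to 0.46 with log2(TPM + 1), and ATF3 from 0.13 with the neighbour offset to 0.36 with spike-in totals. Of the 10 genes, 1 was called by DESeq2 (EGR1), 3 without a filter on low counts (JUN, JUND and EGR1) and 0 to 1 when a line was left out (JUN, at 0.79, without NOCT line 12). With a line left out, IER2 ran from -0.084 (without NOCT line 12) to 0.18 (without GST line 9), with -0.01 without GST line 8, and it was 0.22 with spike-in totals. In the lists, DESeq2 called 5 other immediate early genes, 1 partner, 3 upstream genes, 1 feedback inhibitor and 4 targets, and without the filter the numbers were 7, 1, 4, 1 and 8. The neighbour offset gave 1 other immediate early gene (MYC) and 1 target (TGFB1). Leaving out lines gave 0 to 9, 0 to 1, 0 to 2, 0 to 1 and 0 to 8, the higher value each time without NOCT line 12. Over all genes the 10 calls became 508 with DESeq2, 16 with voom, 34 with total counts, 22 with spike-in totals, 888 without the filter, 37 with the neighbour offset, and 0 (without GST line 9) to 970 (without NOCT line 12). The cause was not tested. Spike-in totals put the median of all genes at 0.15 on the log2 scale. No paired analysis was possible because the line numbers differ between the groups (2, 8 and 9 against 4, 11 and 12). FOSL1 and FOSB rest on few counts, and 3 lines a group limit every interval.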

Other observations

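The genes whose log2 CPM followed FOS, JUN and EGR1 most closely over the 6 lines were named as a description, with no test, since 6 points that share 2 groups leave room for many high values. For EGR1 the 3 highest Pearson r were with ERG28 (0.993), SYNJ2BP (0.992) and MAP4K5 (0.992), and all 3 lie on chromosome 14, while EGR1 lies on chromosome 5. Of 13640 genes compared, 224 had an r of at least 0.9 with EGR1, and 77 of these (34.4%) were on chromosome 14, beside 3.27% of all genes compared. For FOS, itself on chromosome 14, 124 genes reached 0.9 and 34 of them (27.4%) were on that chromosome, and the 3 highest were TNFRSF10D (0.981), TYW5 (0.978) and MYO5C (0.9754). JUN did not share this: of 319 genes at 0.9 or more, 4 (1.25%) were on chromosome 14, and NFKB2 (0.994), TMF1 (0.992) and IDS (0.990) came first. The level of the genes around FOS was 0.31 to 0.34 above the GST mean in the 3 NOCT lines on the log2 scale, and among the GST lines it was highest in line 2 and lowest in line 8, the order that EGR1 and FOS also had there. Whether that level bears on EGR1 was not tested.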
